A study of Mus musculus with 24 samples.

Results

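The time dependence of the interleukin 1β (IL-1β) effect was measured in wild-type mouse primary chondrocytes grown in normal culture, that is, without the dermal fibroblasts used in the other arm of the study. The 12 normal culture libraries of the 24 in the series were used. They form 4 groups of 3: cells 72 h after addition of IL-1β at 10 ng/ml, untreated cells at 72 h, cells 36 h after addition of IL-1β, and untreated cells at 36 h. IL-1β was added 24 h after the cells had attached, so the untreated cells had also been in culture for longer at 72 h. Per the labels the cells came from cartilage digested with collagenase II and DNase I and grew in DMEM/F12 with ITS and fetal bovine serum, and bulk poly(A) RNA was sequenced. The sources used here do not give the age or strain of the mice or the cartilage used. The labels do not tell whether the 3 replicates of a group were separate cultures or animals, and all p-values therefore rest on a spread between samples that may be technical.

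IL-1β is an inflammatory cytokine made largely by macrophages and, in diseased joints, by synovial cells and chondrocytes. Its receptor signals through the adaptor MyD88 to NF-kB and to the MAP kinases that activate AP-1, and both induce cytokines, chemokines, acute phase proteins and matrix metalloproteinases. NF-kB also induces its own inhibitors, so the response is limited by feedback. In chondrocytes the same signal lowers Sox9 and the cartilage collagens and proteoglycans that Sox9 controls. The effect of a treatment at any time is the distance between treated and untreated cells, so it can change because the treated level moves, because the untreated level moves, or both.

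Levels below are FPKM (fragments per kilobase of gene per 1000000 mapped fragments), given library by library or as mean ± SD (n = 3). Changes and effects are differences of log2(FPKM + 1), so that a value of 1 is a 2-fold change for a gene well above 1 FPKM, and the change of a gene near 0 is compressed. A gene passed a test at an adjusted p under 0.05 (limma, Benjamini-Hochberg over the 12057 genes with at least 1 FPKM in at least 3 of the 12 libraries). The FPKM of a library summed to between 438242 and 506621, and 11335 to 11607 genes reached 1 FPKM. Pearson correlations across genes between libraries of a group were 0.989 to 0.998, and no libraries held identical values. The treated cells at 72 h were the most variable group: the root mean square SD was 0.167 on the log2 scale, against 0.0899 to 0.0984 in the other 3 groups. On the first principal component, replicate 1 of that group stood at 21.8, against 11.7 and 12.8 for replicates 2 and 3.

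The chondrocyte label was checked with 10 markers, of which 9 reached 1 FPKM in at least 1 group and Snorc stayed under 0.5 FPKM in all 12 libraries. Their summed level was 293 to 302 FPKM in treated and 1074 to 1141 FPKM in untreated cells at 72 h, and 302 to 319 FPKM in treated and 785 to 816 FPKM in untreated cells at 36 h. The sums lean on 1 gene, Col2a1, at 765 ± 3.38 FPKM in untreated cells at 72 h and 302 ± 11.7 FPKM at 36 h. Of the 9 markers tested, 3 rose and 3 fell between the times in untreated cells, against 30.2% and 22.9% of all genes tested. In treated cells 1 rose and 4 fell, against 35.2% and 30.2%. Markers of other cell types were present. The 12 skeletal muscle markers, all above 1 FPKM in some group, summed to 102 to 119 FPKM in treated and 50.7 to 59.3 FPKM in untreated cells at 72 h, against 362 to 386 FPKM in treated and 318 to 364 FPKM in untreated cells at 36 h. The 10 macrophage markers summed to 137 to 157 and 102 to 109 FPKM in treated and untreated cells at 72 h, and to 72.7 to 83.8 and 55.6 to 63.8 FPKM in treated and untreated cells at 36 h. The 8 fibroblast markers, which mesenchymal cells share, summed to 435 to 483 and 269 to 324 FPKM in treated and untreated cells at 72 h, and to 1009 to 1063 and 708 to 712 FPKM at 36 h. The endothelial list stayed at 1.3 to 1.65 and 1.94 to 2.41 FPKM at 72 h and 0.98 to 1.54 and 2.21 to 2.41 FPKM at 36 h, with 6 of its 8 markers, Pecam1, Cdh5, Kdr, Tie1, Vwf and Cldn5, under 0.5 FPKM in every library. In bulk samples such as these, fewer cells of a type and less RNA per cell cannot be told apart.

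The effect of IL-1β differed between 72 h and 36 h for 4563 of the 12057 genes. It was more positive at 72 h for 2376 genes, 19.7% of those tested, and more negative for 2187, 18.1%. This balance turned round when each library was rescaled to TPM, with 1964 more positive and 2441 more negative genes. The difference was at least 2-fold for 412 genes, 258 more positive and 154 more negative. Over all genes tested, its median was 0.01 on the log2 scale. The changes over time that make up this difference were common: 7881 genes, 65.4%, changed between the times in treated cells (35.2% higher and 30.2% lower at 72 h), and 6401, 53.1%, in untreated cells (30.2% higher and 22.9% lower). IL-1β itself changed 7081 genes, 58.7%, at 72 h (21.5% raised, 37.3% lowered) and 7719 genes, 64%, at 36 h (24.6% raised, 39.4% lowered).

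Each gene that passed was sorted by which level had moved. The untreated level counted as the one that moved where its change between the times was at least 2 times the treated change in size, and the reverse for the treated level. By this rule the treated level moved for 2225 of the 4563 genes (48.8%), the untreated level for 1132 (24.8%), both in opposite directions for 713 (15.6%) and both in the same direction for 493 (10.8%). Every one of these counts depends on the rule. Over the alternatives that kept every library, other sorting rules included, the treated class held 1540 to 2674 genes and the untreated class 823 to 1385. With a ratio of 1.5 the opposite-direction class held 412 and the same-direction class 92. With a ratio of 3 the same-direction class held 1171, and sorting by whether each change passed its own test put 1422 there. Among the 412 genes with a difference of at least 2-fold the untreated class was the largest with all libraries: the untreated level moved for 187 (45.4%) and the treated level for 133 (32.3%), both in opposite directions for 84 (20.4%) and both in the same direction for 8 (1.94%). For 129 of those 187 genes the untreated level was lower at 72 h than at 36 h, and for 58 it was higher. Leaving out IL-1β-treated 72 h replicate 1 gave 460 genes with a difference of at least 2-fold, with 181 in the untreated class and 181 in the treated class. Without replicate 2 of that group there were 411, with 184 and 128, and without replicate 3 there were 379, with 187 and 104. The sorting is a matter of degree: for 1696 of the 4563 genes (37.2%) the larger change was between 1.5 and 3 times the smaller.

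**Figure D1:**
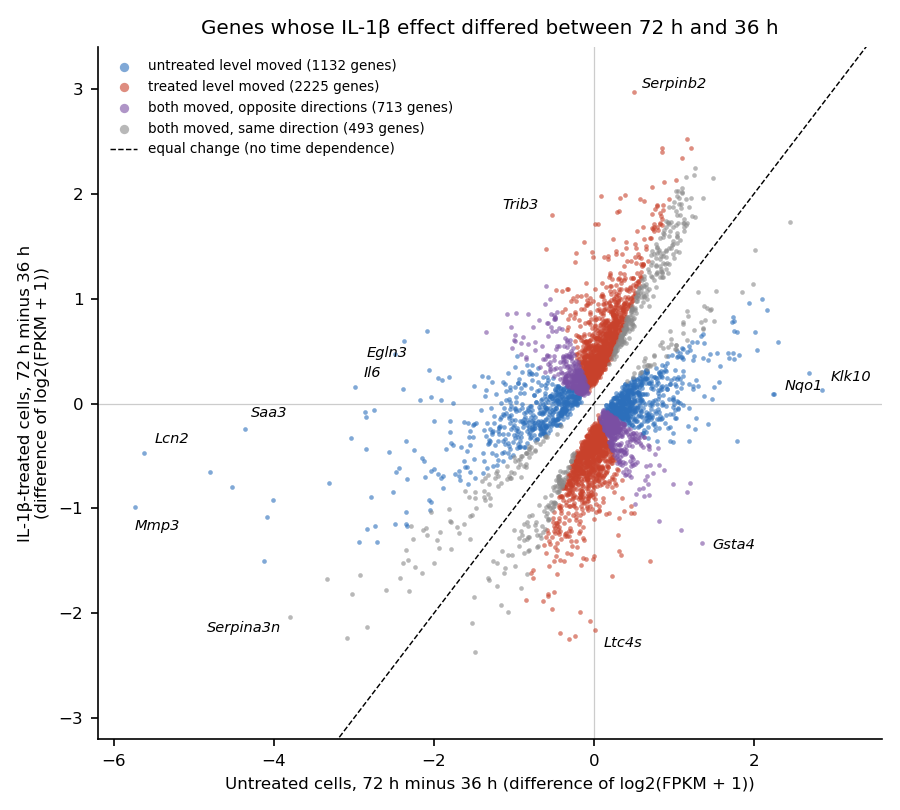
Change between 36 h and 72 h in IL-1β-treated cells (vertical axis, difference of log2(FPKM + 1)) against that in untreated cells (horizontal axis, same unit), 1 point for each of the 4563 genes whose IL-1β effect differed between the times. The dashed line marks equal changes, and the genes farthest from it lie to the left, where Mmp3 has a treated change of -0.99 and an untreated change of -5.74.

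The difference also took several forms when read as an effect at each time. IL-1β acted in the same direction at both times with the larger effect at 72 h for 523 genes and with the smaller effect at 72 h for 1114. The effect passed at 72 h alone for 996 genes and at 36 h alone for 1381. For 492 genes both effects passed with opposite signs, and for 57 neither passed. Among the genes with a difference of at least 2-fold these counts were 87 larger, 95 smaller, 67 at 72 h alone, 63 at 36 h alone, 99 of opposite signs and 1 at neither. A total of 77 of the 87 genes with a larger effect had a more positive one.

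Among the genes named by rule, the 5 largest differences belonged to acute phase and matrix-degrading genes whose untreated level was lower at 72 h than at 36 h. Lcn2, which encodes lipocalin, an acute phase protein that binds iron carriers, stood at 2194, 2067 and 2612 FPKM in IL-1β-treated and 2.22, 2.46 and 3.05 FPKM in untreated cells at 72 h, against 3006, 3225 and 3266 FPKM in treated and 191, 164 and 170.2 FPKM in untreated cells at 36 h. The untreated libraries of the times lay far apart, and the treated libraries did not overlap either but differed far less. Lcn2 fell by 5.63 on the log2 scale in untreated cells and by 0.47 in treated cells, a difference in effect of 5.15 (SE 0.14, adjusted p = 8.05e-11). Mmp3, stromelysin, a broad matrix protease that also activates other metalloproteinases, had 1869, 1225 and 1226 FPKM in IL-1β-treated and 1.67, 2.5 and 3.49 FPKM in untreated cells at 72 h, against 2695, 2848 and 2865 FPKM in treated and 211, 184 and 162 FPKM in untreated cells at 36 h. Its untreated level fell by 5.74 and its treated level by 0.99, a difference of 4.75 (SE 0.25, adjusted p = 3.58e-08). The libraries of the times did not overlap in either condition, and among the treated libraries at 72 h replicate 1 was the highest.

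Mmp13, the collagenase that cleaves type II collagen, gave 458, 309.9 and 276 FPKM in IL-1β-treated and 11.2, 8.74 and 10.9 FPKM in untreated cells at 72 h, against 533, 471 and 604 FPKM in treated and 329, 301 and 301 FPKM in untreated cells at 36 h. Treated libraries lay above untreated ones at both times, far above at 72 h (effect 4.92) and close above at 36 h (effect 0.78), with a difference of 4.14 (SE 0.21, adjusted p = 3.07e-08). Il6, the cytokine that drives the acute phase response, had 758, 658 and 646 FPKM in IL-1β-treated and 4.14, 3.72 and 5 FPKM in untreated cells at 72 h, against 574, 566 and 721 FPKM in treated and 37.7, 43.6 and 40.95 FPKM in untreated cells at 36 h. Treated libraries of the times overlapped, untreated libraries did not, and the difference was 3.14 (SE 0.15, adjusted p = 1.19e-08). Saa3, a serum amyloid A protein, fell by 4.36 in untreated cells while its treated change of -0.25 did not pass, and its effect differed by 4.11 (SE 0.31, adjusted p = 6.66e-07). Steap4, a metalloreductase of the plasma membrane, had 17.1, 15.4 and 11.8 FPKM in IL-1β-treated and 1.49, 0.56 and 0.83 FPKM in untreated cells at 72 h, against 26.02, 23.01 and 29.6 FPKM in treated and 43.2, 41.6 and 45.4 FPKM in untreated cells at 36 h. Treated libraries lay above untreated ones at 72 h and below them at 36 h. The effect of IL-1β on it thus had opposite signs, 3.02 at 72 h and -0.71 at 36 h.

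Where the untreated level moved and the effect was more negative at 72 h, the untreated level was higher at 72 h, a direction that the sorting rule fixes. Nqo1, a quinone reductase and a standard target of the oxidative stress factor NRF2, was at 201, 182 and 193 FPKM in IL-1β-treated and 76.1, 82.1 and 84.04 FPKM in untreated cells at 72 h, against 177, 179 and 184 FPKM in treated and 15.9, 16.2 and 16.2 FPKM in untreated cells at 36 h. Treated libraries of the times overlapped and untreated ones did not. Treated cells changed by 0.09, which did not pass, and untreated cells rose by 2.25, a difference in effect of -2.16 (SE 0.072, adjusted p = 5.34e-10). Klk10, a secreted serine protease of the kallikrein family, was at 0.97, 0.39 and 0.53 FPKM in IL-1β-treated and 10.6, 11.9 and 11.2 FPKM in untreated cells at 72 h, against 0.4, 0.47 and 0.55 FPKM in treated and 0.62, 0.84 and 0.62 FPKM in untreated cells at 36 h. Only the untreated libraries at 72 h exceeded 1 FPKM, so Klk10 passed the filter through that group alone. It was then named for its size, so its difference of -2.72 (SE 0.16, adjusted p = 6.99e-08) is no independent evidence. Perp, a membrane protein of desmosomes, rose by 2.69 in untreated cells and had effects of -1.48 at 72 h and 0.92 at 36 h. Ass1, an enzyme of arginine synthesis, rose by 2.24 in untreated cells, to 92.7 ± 3.27 FPKM at 72 h against 18.9 ± 0.874 at 36 h, with treated levels of 214 ± 8.85 and 201 ± 11.1 FPKM. Cavin2, a coat protein of caveolae, and Tnfrsf11b, the decoy receptor osteoprotegerin, differed by -2.14 and -1.71, with untreated rises of 1.79 and 2.29. The 9 epithelial markers in the table summed to 14.2 to 27.2 FPKM in treated and 17.1 to 18.1 FPKM in untreated cells at 72 h, and to 5.34 to 6.52 and 6.47 to 6.82 FPKM at 36 h. Krt5, Epcam, Cdh1 and Dsp among them stayed under 0.5 FPKM in all 12 libraries. Pkp1, a plakophilin of desmosomes, rose in untreated cells, to 2.37 ± 0.134 FPKM at 72 h against 0.19 FPKM in each untreated library at 36 h. The untreated libraries at 72 h were enough for Pkp1 to pass the filter, so this rise is no independent evidence. The part of this list in the results for Klk10 and Perp was not tested.

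For another group of genes most of the movement was in treated cells. Serpinb2, an inhibitor of plasminogen activators, was at 13.2, 8.91 and 7.45 FPKM in IL-1β-treated and 0.34, 0.64 and 0.46 FPKM in untreated cells at 72 h, against 0.32, 0.29 and 0.45 FPKM in treated and 0.02, 0 and 0.12 FPKM in untreated cells at 36 h. All 3 treated libraries at 72 h lay above all others. Only they reached 1 FPKM, so Serpinb2 passed the filter through that group alone. It was then named for its size, so its difference of 2.47 (SE 0.21, adjusted p = 1.90e-06) is no independent evidence. Trib3, a pseudokinase induced by the stress factor ATF4, had 18.3, 20.99 and 23.5 FPKM in IL-1β-treated and 29.7, 28.7 and 29.9 FPKM in untreated cells at 72 h, against 4.85, 4.75 and 6.34 FPKM in treated and 43.02, 43.2 and 42.02 FPKM in untreated cells at 36 h. Treated libraries were the lowest at both times, and by far at 36 h. IL-1β lowered Trib3 by 0.48 at 72 h and by 2.80 at 36 h, with a difference of 2.32 (SE 0.13, adjusted p = 6.61e-08). Hilpda, a hypoxia-induced protein of lipid droplets, rose by 1.47 in treated cells and fell by 0.60 in untreated cells. Ier3, an early response gene, and Prnd, a relative of the prion protein gene, rose by 1.71 and 1.71 in treated cells, and their untreated changes of 0.05 and 0.01 did not pass. S100a8, a subunit of the myeloid protein calprotectin, was at 22.9, 16.8 and 19.9 FPKM in IL-1β-treated and 0.27, 1.1 and 0.14 FPKM in untreated cells at 72 h, against 4.43, 4.82 and 3.61 FPKM in treated and 0.55, 0.42 and 0.14 FPKM in untreated cells at 36 h. The treated libraries at 72 h were the highest and those at 36 h came next, a difference of 1.89 (SE 0.27, adjusted p = 1.64e-04). S100a8 is also a neutrophil marker: the 7 neutrophil markers in the table summed to 18.9 to 26.4 FPKM in treated and 1.89 to 3.08 in untreated cells at 72 h, and to 5.06 to 6.28 and 1.41 to 1.88 FPKM at 36 h. Among them Ly6g, Retnlg and Csf3r stayed under 0.5 FPKM in every library, and S100a9, the partner of S100a8, averaged 0.59 ± 0.354 FPKM in treated cells at 72 h. The part of neutrophils in the result was not tested.

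The genes whose treated level was lower at 72 h included Ltc4s, a leukotriene synthase, with 0.84, 0.46 and 0.68 FPKM in IL-1β-treated and 0.28, 0.38 and 0.39 FPKM in untreated cells at 72 h, against 6.89, 7.83 and 4.82 FPKM in treated and 0.31, 0.23 and 0.48 FPKM in untreated cells at 36 h. The treated libraries at 36 h lay above all others. Only they reached 1 FPKM, so Ltc4s passed the filter through that group alone. It was then named for its size, so its p-value is no independent evidence. The effect of IL-1β was 0.29 at 72 h, which did not pass, and 2.47 at 36 h, a difference of -2.18 (SE 0.19, adjusted p = 2.61e-06). Dkk2, a secreted modulator of WNT signalling, showed 1.47, 1.59 and 1.23 FPKM in IL-1β-treated and 1.83, 1.69 and 1.94 FPKM in untreated cells at 72 h, against 9.29, 9.5 and 8.92 FPKM in treated and 2.09, 2 and 1.69 FPKM in untreated cells at 36 h. Its treated libraries at 36 h stood above all others, and the effect differed by -2.03 (SE 0.11, adjusted p = 3.58e-08). Cox6b2, a subunit isoform of cytochrome oxidase, fell by 2.22 in treated cells, to 12.4 ± 2.46 FPKM at 72 h against 60.6 ± 4.33 FPKM at 36 h, with untreated levels of 5.87 ± 0.835 and 7.02 ± 0.162 FPKM. Dbp, a transcription factor of the circadian clock, Itih5, a hyaluronan-binding heavy chain, and Sncg, a synuclein, fell by 2.24, 1.64 and 1.99 in treated cells. For each of these 3 genes the effect was negative at 72 h and positive at 36 h.

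**Figure D2:**
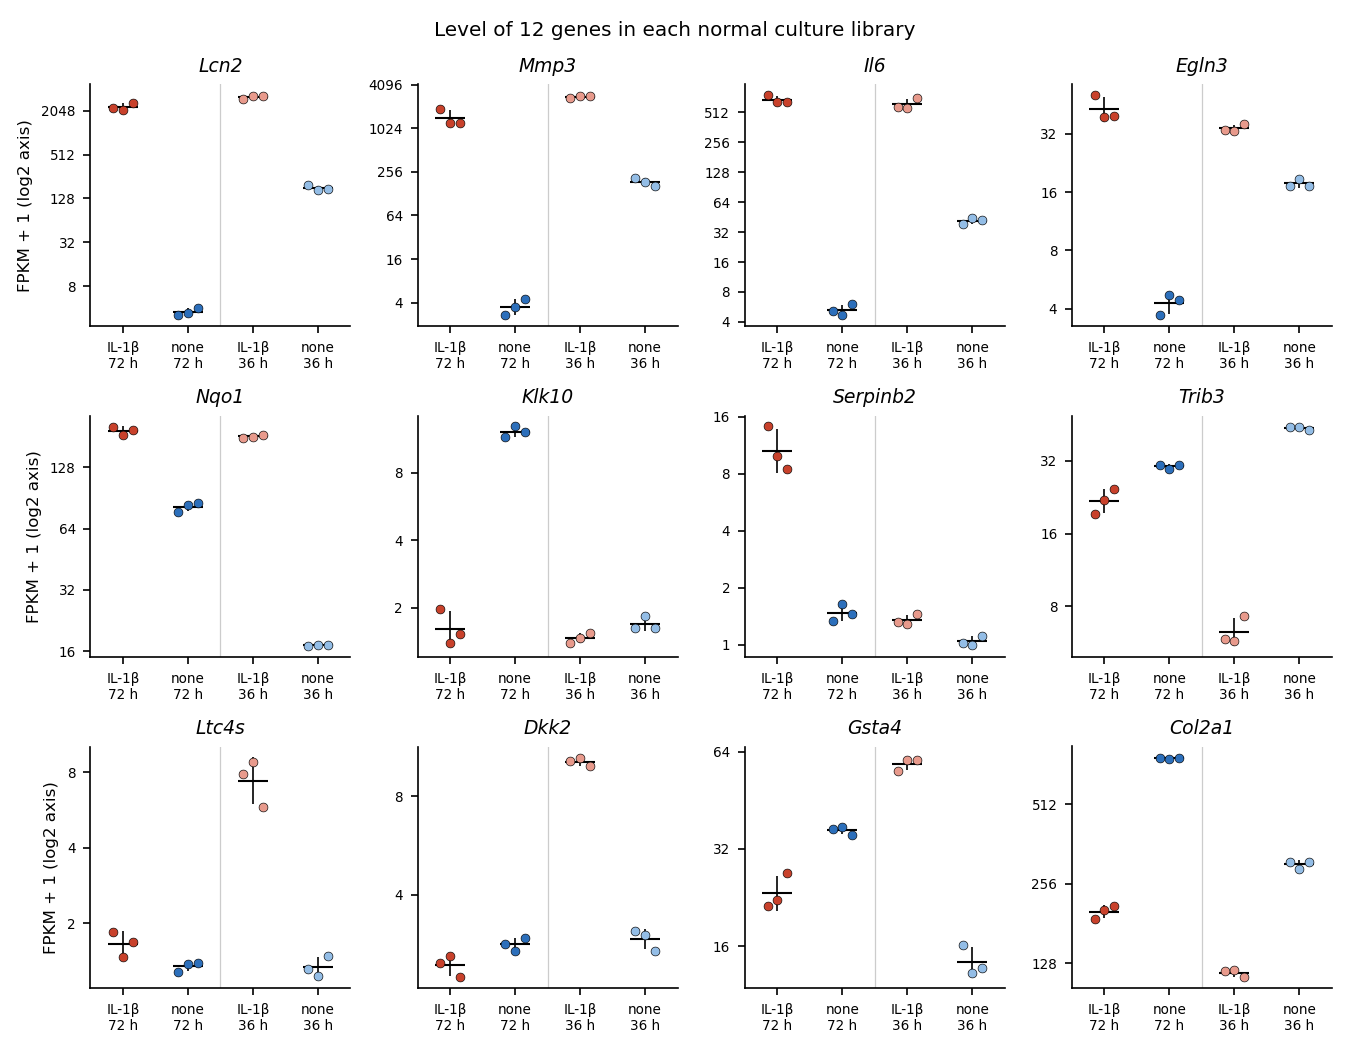
FPKM + 1 on a log2 axis for 12 genes in the 12 libraries, with IL-1β-treated cells left of untreated cells at 72 h and then at 36 h. Points are libraries, and the line and bar are the mean ± SD of the logarithm (n = 3): Lcn2, Mmp3, Il6 and Egln3 differ between the times mostly among untreated cells, and Serpinb2, Ltc4s and Dkk2 mostly among treated cells.

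Where both levels moved in opposite directions, the changes added up. Nos2, the inducible nitric oxide synthase, was at 242, 149 and 144 FPKM in IL-1β-treated and 0.05, 0.09 and 0.16 FPKM in untreated cells at 72 h, against 94.4, 89.3 and 102 FPKM in treated and 1.28, 1.37 and 1.37 FPKM in untreated cells at 36 h. It rose by 0.86 in treated cells and fell by 1.09 in untreated cells, on a scale that compresses the untreated levels near 0, a difference of 1.95 (SE 0.20, adjusted p = 1.10e-05). With a pseudocount of 0.1 the untreated fall of Nos2 was 2.88 beside a treated rise of 0.86, the difference was 3.75, and the gene was sorted to the untreated class. Mgarp, a mitochondrial protein, Plscr2, a phospholipid scramblase, and Ndrg1, a gene induced by hypoxia, differed by 2.03, 1.83 and 1.77. Mgarp also went to the untreated class with the smaller pseudocount. Gsta4, a glutathione transferase for products of lipid peroxidation, was at 20.3, 21.3 and 25.9 FPKM in IL-1β-treated and 35.8, 36.4 and 34.4 FPKM in untreated cells at 72 h, against 54.8, 59.2 and 59.3 FPKM in treated and 15.2, 12.2 and 12.7 FPKM in untreated cells at 36 h. Treated libraries lay below untreated ones at 72 h and above them at 36 h, with a difference of -2.68 (SE 0.12, adjusted p = 1.19e-08). Ano3, an anoctamin, Gask1b, a Golgi protein, and Inhbb, a subunit of activins, differed by -2.29, -2.01 and -1.93. With both levels lower at 72 h, Serpina3n, a serine protease inhibitor, Car9, a carbonic anhydrase, and C1s1, a protease of the first complement component, differed by 1.76, 1.66 and 1.29, of which Car9 went to the untreated class with that pseudocount. Susd2, a membrane protein, and Otor, a secreted protein known from the inner ear and cartilage, also fell at both levels and differed by -0.92 and -0.88. With a pseudocount of 0.1 in place of 1 the difference of Otor was 0.11 and did not pass (adjusted p = 0.818). Asic3, an acid-sensing ion channel, rose at both and differed by -0.84, or by -1.30 with a pseudocount of 0.1.

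To show the sequence next to the strongest examples, 1 gene per direction was taken from the untreated class (Lcn2, Klk10) and the treated class (Serpinb2, Ltc4s). Each had the largest difference there among genes reaching a mean of 5 FPKM in some group. Their promoters are printed as the 250 bases before the annotated start site, 5′ to 3′, from RefSeq on GRCm38.p6. They lie at chr2:32387740-32387989 (minus strand), chr7:43780804-43781053 (plus strand), chr1:107511173-107511422 (plus strand) and chr11:50238533-50238782 (minus strand). Serpinb2 has 2 promoters in the table and the first is shown. Capitals mark matches on either strand to the motifs of NF-kB, AP-1 (TGANTCA), HIF (ACGTG or GCGTG) or NRF2 (TGACNNNGC).
Lcn2: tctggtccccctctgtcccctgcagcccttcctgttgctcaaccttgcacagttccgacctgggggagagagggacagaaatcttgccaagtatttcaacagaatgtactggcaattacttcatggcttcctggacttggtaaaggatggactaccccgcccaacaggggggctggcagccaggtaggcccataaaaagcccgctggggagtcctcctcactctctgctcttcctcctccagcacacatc
Klk10: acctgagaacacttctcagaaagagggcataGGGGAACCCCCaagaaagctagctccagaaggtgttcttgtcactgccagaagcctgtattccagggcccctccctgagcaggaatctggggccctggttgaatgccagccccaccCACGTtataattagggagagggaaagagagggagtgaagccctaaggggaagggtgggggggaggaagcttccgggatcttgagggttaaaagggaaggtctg
Serpinb2: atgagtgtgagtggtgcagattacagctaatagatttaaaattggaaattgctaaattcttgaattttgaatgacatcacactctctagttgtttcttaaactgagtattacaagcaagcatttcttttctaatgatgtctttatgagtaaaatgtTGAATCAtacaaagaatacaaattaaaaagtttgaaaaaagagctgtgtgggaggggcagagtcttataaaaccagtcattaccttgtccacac
Ltc4s: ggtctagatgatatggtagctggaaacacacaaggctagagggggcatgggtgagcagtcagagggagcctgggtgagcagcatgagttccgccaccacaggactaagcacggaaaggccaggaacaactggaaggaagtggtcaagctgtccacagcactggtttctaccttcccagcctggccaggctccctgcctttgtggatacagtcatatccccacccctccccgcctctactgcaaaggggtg
In the Klk10 promoter, 2 overlapping NF-kB matches span positions -219 to -209 from the start site and a HIF match on the minus strand lies at -103 to -99. The Serpinb2 promoter held 1 AP-1 match, at -94 to -88. No match was found in the Lcn2 and Ltc4s windows, which says only that these letters are not there. Among all 32851 promoters of the table (27025 genes), windows of the same length held an NF-kB match in 7.25%, AP-1 in 6.75%, HIF in 38.6% and NRF2 in 10.2%.

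Genes of the inflammatory response were described by lists. Of the 21 cytokine and chemokine genes tested, 13 had a more positive effect at 72 h and 3 a more negative one, against 19.7% and 18.1% of all genes tested. The share of more negative genes is thus near that of all genes. The median difference was 0.76, against 0.01 over all genes. The untreated level was the one that moved in 10 of those 13, against 24.8% of all genes that passed. The median change of the list was -0.11 in treated and -0.99 in untreated cells. Ccl2, which attracts monocytes, was at 2178, 1758 and 1871 FPKM in IL-1β-treated and 51.6, 47.6 and 49.3 FPKM in untreated cells at 72 h, against 1229, 1216 and 1385 FPKM in treated and 281, 246 and 258 FPKM in untreated cells at 36 h. Neither the treated nor the untreated libraries of the times overlapped. The treated level rose by 0.60 and the untreated level fell by 2.38, for a difference of 2.97 (SE 0.12, adjusted p = 2.57e-09). Cxcl5, a neutrophil chemokine, and Ccl7, a monocyte chemokine, differed by 2.71 and 2.13, with treated levels of 3354 ± 640.0 and 912 ± 67.97 FPKM at 72 h and 4159 ± 142 and 778 ± 38.7 FPKM at 36 h. Lif and Il11, cytokines of the Il6 family, did not pass, at 0.10 (SE 0.16, adjusted p = 0.638) and 0.76 (SE 0.32, adjusted p = 0.0751). Lif stood at 135 ± 29.2 FPKM in treated and 4.36 ± 0.238 FPKM in untreated cells at 72 h, and at 88.1 ± 4.28 and 2.82 ± 0.257 FPKM at 36 h. The macrophage markers had their highest sums in treated cells at 72 h, as given above. Of the 9 tested, IL-1β raised 2 and lowered 5 at 72 h, against 21.5% and 37.3% of all genes. At 36 h it raised 3 and lowered 3, against 24.6% and 39.4% of all genes. The part of these markers in the cytokine results was not tested.

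NF-kB subunits and feedback genes had a more positive effect at 72 h in 14 of 19 cases and a more negative one in 4 (median 0.47). The shares over all genes were 19.7% and 18.1%, so the share of more negative genes is near that of all genes. The count of 4 was 1 or 2 when any 1 library other than treated 36 h replicate 2 and treated 72 h replicates 1 and 3 was left out. Zc3h12a, the RNase regnase that degrades cytokine mRNAs, was at 63.8, 59.4 and 61.1 FPKM in IL-1β-treated and 3.97, 3.74 and 3.78 FPKM in untreated cells at 72 h, against 64.1, 63.7 and 65.2 FPKM in treated and 11.7, 12.02 and 12 FPKM in untreated cells at 36 h. Its treated libraries overlapped between the times, and its untreated libraries fell by 1.42. Bcl3 and Nfkbiz, nuclear members of the IkB family, and Tnfaip3, a ubiquitin-editing enzyme, differed by 1.30, 1.04 and 1.04. Traf2, an adaptor of the tumour necrosis factor receptors, did not pass at 0.12. Among the acute phase, prostaglandin and nitric oxide genes, 9 of 14 were more positive and 2 more negative (median 0.78). The shares over all genes were again 19.7% and 18.1%. Leaving out any 1 library but treated 72 h replicate 1 left 1 more negative gene. Hp, haptoglobin, fell by 4.02 in untreated and by 0.92 in treated cells.

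Ptgs2, the inducible cyclooxygenase that makes prostaglandins, was among the 2 more negative genes of that list. It was at 936, 552 and 439.6 FPKM in IL-1β-treated and 43.5, 52.5 and 54.1 FPKM in untreated cells at 72 h, against 559.6, 499 and 605 FPKM in treated and 19.03, 21.4 and 21.2 FPKM in untreated cells at 36 h. All 3 untreated libraries at 72 h lay above those at 36 h, a rise of 1.24, and the treated libraries overlapped, with replicate 1 at 72 h the highest. Its effect was therefore smaller at 72 h, 3.59 against 4.69, a difference of -1.10 (SE 0.28, adjusted p = 0.00738). Ptgs1, the constitutive cyclooxygenase, and Arg1, arginase, did not pass, at -0.10 and -0.03.

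Complement genes had 6 of 10 more positive and 3 more negative differences, with a median of 1.11. The shares over all genes were 19.7% and 18.1%. In both conditions the list was lower at 72 h, with median changes of -1.10 in treated and -2.35 in untreated cells. C3, the central component, was at 98.6, 78.96 and 84.2 FPKM in IL-1β-treated and 0.84, 0.97 and 0.84 FPKM in untreated cells at 72 h, against 186, 185 and 185 FPKM in treated and 31.7, 32.3 and 29.3 FPKM in untreated cells at 36 h. No groups overlapped. Untreated cells fell by 4.09 and treated cells by 1.08, a difference of 3.01 (SE 0.10, adjusted p = 5.34e-10). Cfb, a component of the alternative pathway, C4b, of the classical pathway, and Serping1, the inhibitor of the first component, differed by 2.55, 2.10 and 1.89. The effect of IL-1β on C4b was -0.20 at 72 h, which did not pass, and -2.31 at 36 h.

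Most matrix-degrading enzymes were lower at 72 h in both conditions: 20 of 28 fell in treated cells (median change -0.40) and 18 in untreated cells (median change -0.44), against 30.2% and 22.9% of all genes. Their difference in effect was mixed, with 8 more positive at 72 h and 10 more negative, against 19.7% and 18.1% of all genes. The count of 8 fell to 4 without untreated 72 h replicate 2 and to 5 without any 1 of the 3 untreated 36 h libraries, without treated 36 h replicate 2 or replicate 3, or after rescaling to TPM. Adamts5, an aggrecanase, was at 19.8, 17.4 and 15.1 FPKM in IL-1β-treated and 24.1, 26 and 25.02 FPKM in untreated cells at 72 h, against 56.5, 50.3 and 51.6 FPKM in treated and 48.2, 51.7 and 52.1 FPKM in untreated cells at 36 h. Treated libraries lay below untreated ones at 72 h and overlapped with them at 36 h. Adamts5 fell by 1.55 in treated and by 0.99 in untreated cells, and the effect of IL-1β was -0.51 at 72 h and 0.06 at 36 h, which did not pass. The difference was -0.56 (SE 0.11, adjusted p = 0.00176). Adamts4, another aggrecanase, averaged 7.53 ± 0.238 FPKM in treated and 4.42 ± 0.1801 FPKM in untreated cells at 72 h, and 12.9 ± 0.206 and 9.21 ± 0.403 FPKM at 36 h. Its difference of 0.21 (SE 0.076, adjusted p = 0.042) lost its call under 12 alternatives, with adjusted p of 0.0512 to 0.126. Adamts12, a related protease, and Mmp9, a gelatinase, differed by -0.98 and -0.79, but with a pseudocount of 0.1 Mmp9 did not pass (adjusted p = 0.999). Protease inhibitors were also mixed, with 5 of 13 more positive and 2 more negative (a share near that of all genes), or 5 more negative without treated 72 h replicate 1. Slpi, an inhibitor of leukocyte proteases, was at 66.95 ± 28.7 FPKM in treated and 2.96 ± 0.952 FPKM in untreated cells at 72 h, and at 69.6 ± 2.91 and 27.1 ± 2.33 FPKM at 36 h. Timp1, an inhibitor of metalloproteinases, did not pass at 0.11.

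Of the cartilage genes, IL-1β lowered type II collagen, aggrecan and link protein more at 72 h than at 36 h. Col2a1, type II collagen, was at 188, 203 and 209 FPKM in IL-1β-treated and 768, 761 and 765 FPKM in untreated cells at 72 h, against 118, 119 and 112 FPKM in treated and 309, 289 and 309 FPKM in untreated cells at 36 h. It rose between the times in treated cells by 0.77 and more in untreated cells, by 1.34, with no overlap between the times, so IL-1β lowered it by 1.93 at 72 h and by 1.37 at 36 h. The difference was -0.56 (SE 0.076, adjusted p = 9.30e-05). Acan, aggrecan, was at 2.22, 1.19 and 1.04 FPKM in IL-1β-treated and 19.7, 18.4 and 17.7 FPKM in untreated cells at 72 h, against 1.33, 1.18 and 1.02 FPKM in treated and 10.1, 9.42 and 10.1 FPKM in untreated cells at 36 h, a difference of -0.69 (SE 0.18, adjusted p = 0.01). Its untreated level rose, and its treated libraries overlapped, with a change of 0.16 that did not pass. With a pseudocount of 0.1 the difference of Acan did not pass (adjusted p = 0.0733). Sox9, the transcription factor that drives both genes, had a smaller effect at 72 h, -1.63 against -2.08, with a difference of 0.46 (SE 0.15, adjusted p = 0.0322) that lost its call under 9 alternatives, with adjusted p of 0.0506 to 0.0807. Without treated 72 h replicate 1 it was 0.29. Hapln1, the link protein of aggrecan aggregates, was at 4.13, 3.76 and 3.03 FPKM in IL-1β-treated and 15.4, 14.2 and 14.8 FPKM in untreated cells at 72 h, against 12.7, 11.8 and 12.7 FPKM in treated and 16.2, 16.4 and 17.3 FPKM in untreated cells at 36 h. Here the treated level moved, with a difference of -1.38 (SE 0.11, adjusted p = 1.16e-06). Over the list, 6 of 19 genes were more positive and 9 more negative, against 19.7% and 18.1% of all genes. The effect at 72 h was smaller for all 6 more positive genes and larger for 7 of the 9 more negative ones. Among all genes that passed, it was smaller for 24.4% and larger for 11.5%. Matn4, a matrilin, and Cilp, of the cartilage intermediate layer, differed by 1.66 and 1.29, and Comp, cartilage oligomeric matrix protein, did not pass at 0.35.

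Among genes of hypertrophy, mineralization and the joint surface, Col10a1, the collagen of hypertrophic chondrocytes, was at 5.39, 2.56 and 2.67 FPKM in IL-1β-treated and 7.42, 7.63 and 7.5 FPKM in untreated cells at 72 h, against 2.22, 2.04 and 2.53 FPKM in treated and 1.7, 1.3 and 1.59 FPKM in untreated cells at 36 h. Untreated cells rose by 1.75 and treated cells by 0.42, with treated replicate 1 at 72 h above the other 2, and the effect passed at 72 h alone, at -0.96. The difference was -1.33 (SE 0.24, adjusted p = 7.58e-04). Sp7, the osteoblast factor osterix, rose in untreated cells to 7.897 ± 1.48 FPKM at 72 h against 1.15 ± 0.155 at 36 h, and its effect differed by -1.52. Ank, a transporter that exports pyrophosphate, and Mgp, an inhibitor of calcification, differed by -0.81 and 0.73. The list had 4 more positive and 4 more negative genes of 11, against 19.7% and 18.1% of all genes. Without any 1 of the untreated 36 h libraries, 2 were more positive. Prg4, the joint lubricant lubricin, was at 104, 101 and 103 FPKM in IL-1β-treated and 49.3, 51.1 and 50.99 FPKM in untreated cells at 72 h, against 115, 108 and 118 FPKM in treated and 32.8, 28.1 and 30.2 FPKM in untreated cells at 36 h. No groups overlapped, and IL-1β raised Prg4 less at 72 h, with a difference of -0.86 (SE 0.079, adjusted p = 3.80e-06). Skeletal transcription factors had 2 more positive and 5 more negative genes of 14, against 19.7% and 18.1% of all genes. The 2 became 0 or 1 without any 1 library of the 36 h groups or without untreated 72 h replicate 2 or 3. Runx2, which drives hypertrophy, and Scx, a factor of tendon cells, differed by -0.55 and -0.98. Non-cartilage matrix genes had 6 more positive and 12 more negative of 26, against 19.7% and 18.1% of all genes. Among the more negative were Aspn, asporin, at -1.24 and Thbs1, thrombospondin, at -1.07. Col1a2 and Col3a1, interstitial collagens, did not pass at 0.21 and 0.21.

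HIF targets, the genes induced when oxygen-sensing hydroxylases release hypoxia-inducible factors, had a more positive effect at 72 h in 19 of 23 cases. The share over all genes was 19.7%, and the median of the list was 1.17. None was more negative (limma, 0 also at an unadjusted p under 0.05), but 1 was without treated 72 h replicate 1. IL-1β had a median effect of 1.34 on them at 72 h and of 0.09 at 36 h. The median change between the times was 0.23 in treated and -0.89 in untreated cells. Of the 19 genes the untreated level moved in 10 and both moved apart in 7, against 24.8% and 15.6% of all genes that passed. Egln3, an oxygen-sensing prolyl hydroxylase, was at 49.5, 38.2 and 38.5 FPKM in IL-1β-treated and 2.69, 3.72 and 3.41 FPKM in untreated cells at 72 h, against 32.5, 32.2 and 34.98 FPKM in treated and 16.2, 17.8 and 16.3 FPKM in untreated cells at 36 h. All treated libraries at 72 h exceeded those at 36 h and all untreated ones fell short of theirs, a difference of 2.38 (SE 0.14, adjusted p = 1.00e-07). Angptl4, a lipoprotein lipase inhibitor, fell at both levels, to 38.7 ± 5.86 against 110.3 ± 7.61 FPKM in treated and to 5.02 ± 1.09 against 103 ± 4.63 FPKM in untreated cells. Its difference was 2.62. Ndrg1 was at 69.4, 37.8 and 36.8 FPKM in IL-1β-treated and 21.98, 18.7 and 19.9 FPKM in untreated cells at 72 h, against 26.5, 27.4 and 28.2 FPKM in treated and 42.6, 44.8 and 40.3 FPKM in untreated cells at 36 h. Treated libraries lay above untreated ones at 72 h and below them at 36 h, and replicate 1 was far above the other treated libraries at 72 h. That library also stood highest in the median level of the list, centred by gene, at 0.71, 0.23 and 0.33 in treated replicates 1 to 3 at 72 h, against -0.82, -0.82 and -0.79 in untreated cells. At 36 h the levels were 0.16, 0.15 and 0.31 in treated and 0.04, 0.11 and 0.05 in untreated cells. Over the alternatives, leaving that library out included, between 18 and 20 genes of the list passed in this direction. Adm, adrenomedullin, and Plod2, a collagen lysyl hydroxylase, did not pass, at 0.19 and 0.56.

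Glucose uptake and glycolysis genes, many of them also HIF targets, were more positive in 18 of 21 cases and more negative in 1 (median 0.91). The shares over all genes were 19.7% and 18.1%. The treated level moved in 9 of the 18 and the untreated level in 2, with both moving apart in 7. Among all genes that passed, these classes held 48.8%, 24.8% and 15.6%, so the treated share is near that of all genes that passed. The median effect of IL-1β was 0.89 at 72 h and 0.01 at 36 h. Slc16a3, the lactate exporter, was at 186, 163 and 182 FPKM in IL-1β-treated and 57.6, 62.6 and 60.9 FPKM in untreated cells at 72 h, against 80.9, 77.4 and 90.95 FPKM in treated and 87.99, 83.1 and 81.5 FPKM in untreated cells at 36 h. Treated and untreated libraries overlapped at 36 h and lay apart at 72 h, a difference of 1.56 (SE 0.096, adjusted p = 1.17e-07). Slc2a1, the main glucose transporter, Pfkl, a subunit of phosphofructokinase, and Pdk1, which restrains pyruvate dehydrogenase, differed by 1.36, 1.30 and 1.38. Pfkm, another subunit, and Slc2a3, another transporter, did not pass, at 0.14 and 0.54.

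**Figure D3:**
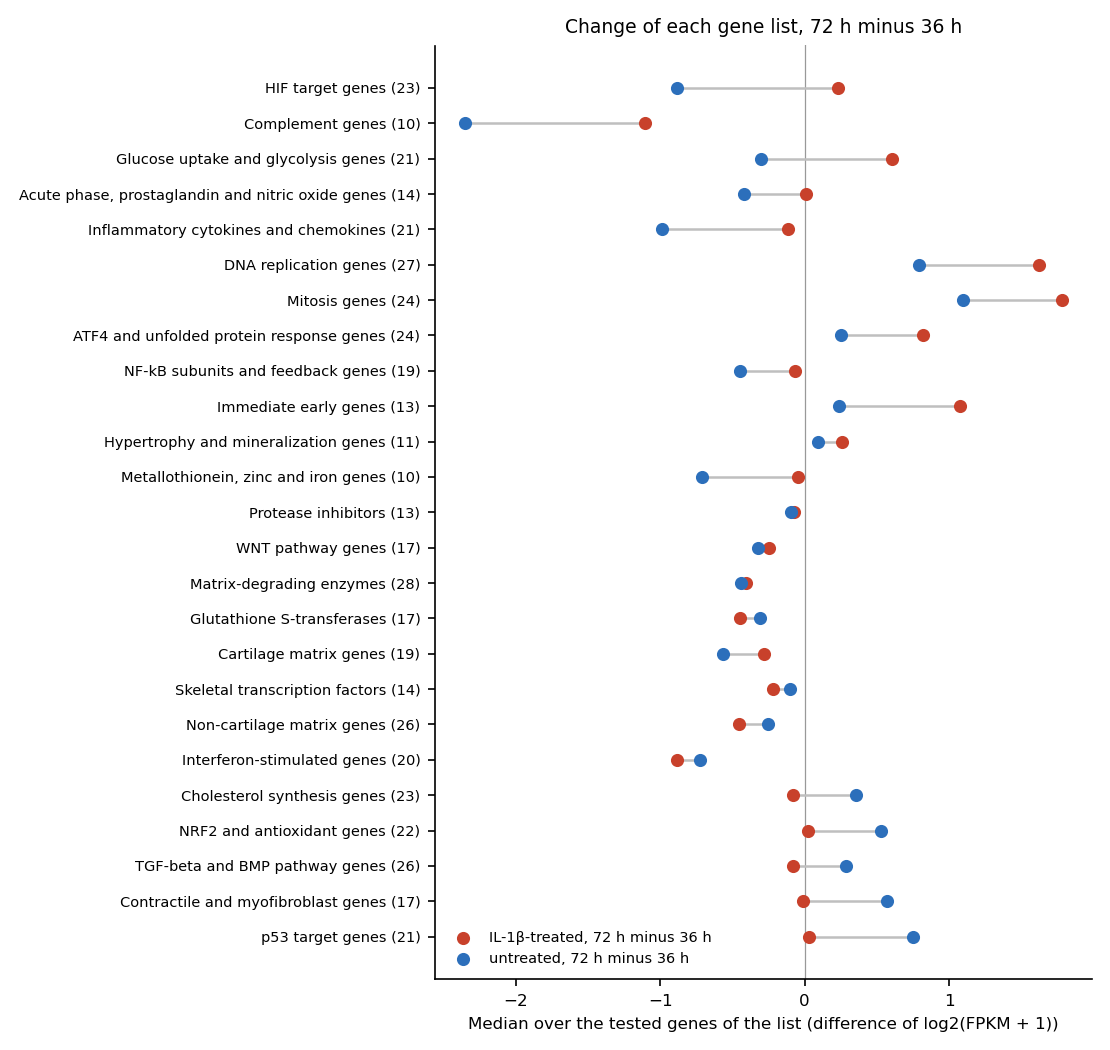
Median change of each gene list between 36 h and 72 h (difference of log2(FPKM + 1), 72 h minus 36 h) in IL-1β-treated cells (red) and untreated cells (blue), with the number of genes tested in brackets and the lists ordered by their median difference in effect. HIF targets have medians of 0.23 in treated and -0.89 in untreated cells, and mitosis genes of 1.78 in treated and 1.09 in untreated cells.

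NRF2 and antioxidant genes moved the other way: 13 of 22 were more negative at 72 h, with a median of -0.37, and 0 more positive (limma, 0 also at an unadjusted p under 0.05). The shares over all genes were 18.1% more negative and 19.7% more positive. IL-1β raised 19 genes of the list at 72 h and all 22 at 36 h, against 21.5% and 24.6% of all genes. The median effect on the list was 0.68 at 72 h against 1.25 at 36 h. The untreated level moved in 8 of the 13, against 24.8% of all genes that passed. In untreated cells 17 genes of the list rose, against 30.2% of all genes. Gclm, the modifier subunit of the enzyme that makes glutathione's precursor, was at 76.7, 66.4 and 70.9 FPKM in IL-1β-treated and 42.01, 41.2 and 45.99 FPKM in untreated cells at 72 h, against 72.02, 70.7 and 71.5 FPKM in treated and 23.3, 22.4 and 24.1 FPKM in untreated cells at 36 h. Treated libraries of the times overlapped, and untreated ones did not. Gclc, its catalytic subunit, and Ftl1, ferritin light chain, differed by -0.95 and -1.02. Hmox1, heme oxygenase, and Fth1, ferritin heavy chain, did not pass at -0.30 and -0.10. Of the glutathione S-transferases, 3 of 17 were more negative and 1 more positive (2 without treated 72 h replicate 1), no more than the 18.1% and 19.7% of all genes. Besides Gsta4 the largest difference among those named was Gsta3 at -0.74. Metallothionein, zinc and iron genes had 5 more positive and 1 more negative of 10, or 2 more negative without treated 36 h replicate 2, untreated 72 h replicate 2 or treated 72 h replicate 1. Mt2, a metallothionein, was at 889.6, 701 and 844 FPKM in IL-1β-treated and 66.3, 71.4 and 76.5 FPKM in untreated cells at 72 h, against 725, 735 and 734 FPKM in treated and 383, 401 and 351 FPKM in untreated cells at 36 h. Treated libraries of the times overlapped. The untreated level fell by 2.39 and the treated change of 0.14 did not pass, a difference of 2.53 (SE 0.12, adjusted p = 1.19e-08).

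Cell cycle genes were higher at 72 h in both conditions, by more in treated cells. All 27 DNA replication genes and all 24 mitosis genes rose in treated and in untreated cells, against 35.2% and 30.2% of all genes. Their median changes were 1.62 and 1.78 in treated cells, against 0.79 and 1.09 in untreated cells. IL-1β lowered 24 replication genes at 72 h and 25 at 36 h, and 23 mitosis genes at 72 h and 24 at 36 h. Of all genes, IL-1β lowered 37.3% at 72 h and 39.4% at 36 h. Its effect was more positive at 72 h for 22 replication genes and 21 mitosis genes, against 19.7% of all genes. The effect was more negative for 0 in both lists (limma, 0 also at an unadjusted p under 0.05), against 18.1% of all genes. For 20 of those 22 and 20 of those 21 the effect was smaller at 72 h, against 24.4% of all genes that passed. Tk1, thymidine kinase, was at 22.3, 33.8 and 36.2 FPKM in IL-1β-treated and 49.1, 49.8 and 53.7 FPKM in untreated cells at 72 h, against 5.12, 4.44 and 4.77 FPKM in treated and 28.4, 27.9 and 27.1 FPKM in untreated cells at 36 h. The treated libraries at 36 h were the lowest, replicate 1 was the lowest of the treated ones at 72 h, and the difference was 1.59 (SE 0.18, adjusted p = 2.23e-05). Mcm5, a subunit of the replicative helicase, averaged 15.4 ± 3.699 FPKM in treated and 26.8 ± 1.33 FPKM in untreated cells at 72 h, and 1.82 ± 0.463 and 11.4 ± 0.4804 FPKM at 36 h. Birc5, survivin, and Plk1, a mitotic kinase, differed by 1.23 and 0.97. Rrm1 and Rrm2, the subunits of ribonucleotide reductase, did not pass, at -0.13 and 0.12, and Cdk1, the mitotic kinase partner of cyclin B, did not pass at 0.49.

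Targets of the tumour suppressor p53 were more negative at 72 h in 16 of 21 cases and more positive in 4 (median -0.65). The shares over all genes were 18.1% and 19.7%, so the share of more positive genes is near that of all genes. The median effect was 0.38 at 72 h and 1.09 at 36 h, and untreated cells changed by a median of 0.75 against 0.03 in treated cells. Ccng1, cyclin G, was at 278, 219 and 203 FPKM in IL-1β-treated and 179, 176 and 182 FPKM in untreated cells at 72 h, against 268, 268 and 286 FPKM in treated and 76.9, 69.9 and 76.2 FPKM in untreated cells at 36 h. Treated libraries of the times overlapped. Ccng1 rose in untreated cells by 1.26, and the difference was -1.50 (SE 0.13, adjusted p = 1.90e-06). Eda2r, a receptor of the tumour necrosis factor family, and Trp53inp1, a stress-induced nuclear protein, differed by -1.40 and -1.10. Bbc3, the death protein PUMA, did not pass at -0.04.

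Targets of ATF4 and of the unfolded protein response are induced under amino acid shortage or stress of the endoplasmic reticulum. They were more positive at 72 h in 18 of 24 and more negative in 1 (median 0.55), against 19.7% and 18.1% of all genes. IL-1β lowered 10 of them at 72 h, a share close to the 37.3% of all genes, and 19 at 36 h, against 39.4% of all genes. The treated level moved in 16 of the 18, against 48.8% of all genes that passed. Shmt2, a mitochondrial enzyme of serine and folate metabolism, was at 68.2, 94.8 and 104 FPKM in IL-1β-treated and 86.2, 85.9 and 83.1 FPKM in untreated cells at 72 h, against 20.5, 21.5 and 23.4 FPKM in treated and 68.4, 65.4 and 68.8 FPKM in untreated cells at 36 h. Treated libraries at 36 h were below all others, those at 72 h overlapped with the untreated ones, and the difference was 1.63 (SE 0.16, adjusted p = 6.18e-06). Chac1, which degrades glutathione, and Mthfd2, a folate enzyme of mitochondria, differed by 1.40 and 1.33, while the chaperones Calr and Hsp90b1 did not pass, at 0.15 and 0.02. Immediate early genes were more positive in 8 of 13 cases and more negative in 1, or 2 without treated 72 h replicate 1. Myc, a growth-promoting transcription factor, was at 38.2, 39.7 and 40.3 FPKM in IL-1β-treated and 30.3, 33.96 and 34.2 FPKM in untreated cells at 72 h, against 17.3, 16.9 and 19.6 FPKM in treated and 33.3, 32.2 and 32.2 FPKM in untreated cells at 36 h. Treated libraries lay above untreated ones at 72 h and below them at 36 h. IL-1β raised Myc at 72 h by 0.26 and lowered it at 36 h by 0.83. Fosl1 and Jun, subunits of AP-1, differed by 0.92 and 0.82.

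Contractile and myofibroblast genes were more negative at 72 h in 12 of 17 cases and more positive in 1 (median -0.56). The shares over all genes were 18.1% and 19.7%. The untreated level moved in 9 of the 12, against 24.8% of all genes that passed. Acta2, smooth muscle actin, was at 893, 1305 and 1425 FPKM in IL-1β-treated and 1078, 1266 and 1168 FPKM in untreated cells at 72 h, against 1244, 1369 and 1292 FPKM in treated and 580.3, 575 and 569 FPKM in untreated cells at 36 h. Untreated libraries at 36 h were the lowest, the groups at 72 h overlapped, and the difference was -1.16 (SE 0.19, adjusted p = 3.55e-04). Tagln, transgelin, rose by 1.38 in untreated cells, and its effect was 0.22 at 72 h, which did not pass, and 1.53 at 36 h. Skeletal muscle markers ran the other way: 9 of 12 were more positive at 72 h, against 19.7% of all genes. All 12 were lower at 72 h than at 36 h in untreated cells, and 11 in treated cells. The shares of all genes lower at 72 h were 22.9% and 30.2%. Mylpf, a fast muscle myosin light chain, averaged 28.01 ± 2.56 FPKM in treated and 14.7 ± 2.83 FPKM in untreated cells at 72 h, and 71.5 ± 6.82 and 101 ± 5.57 FPKM at 36 h. Their part in the falls of other genes in untreated cells was not tested.

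**Figure D4:**
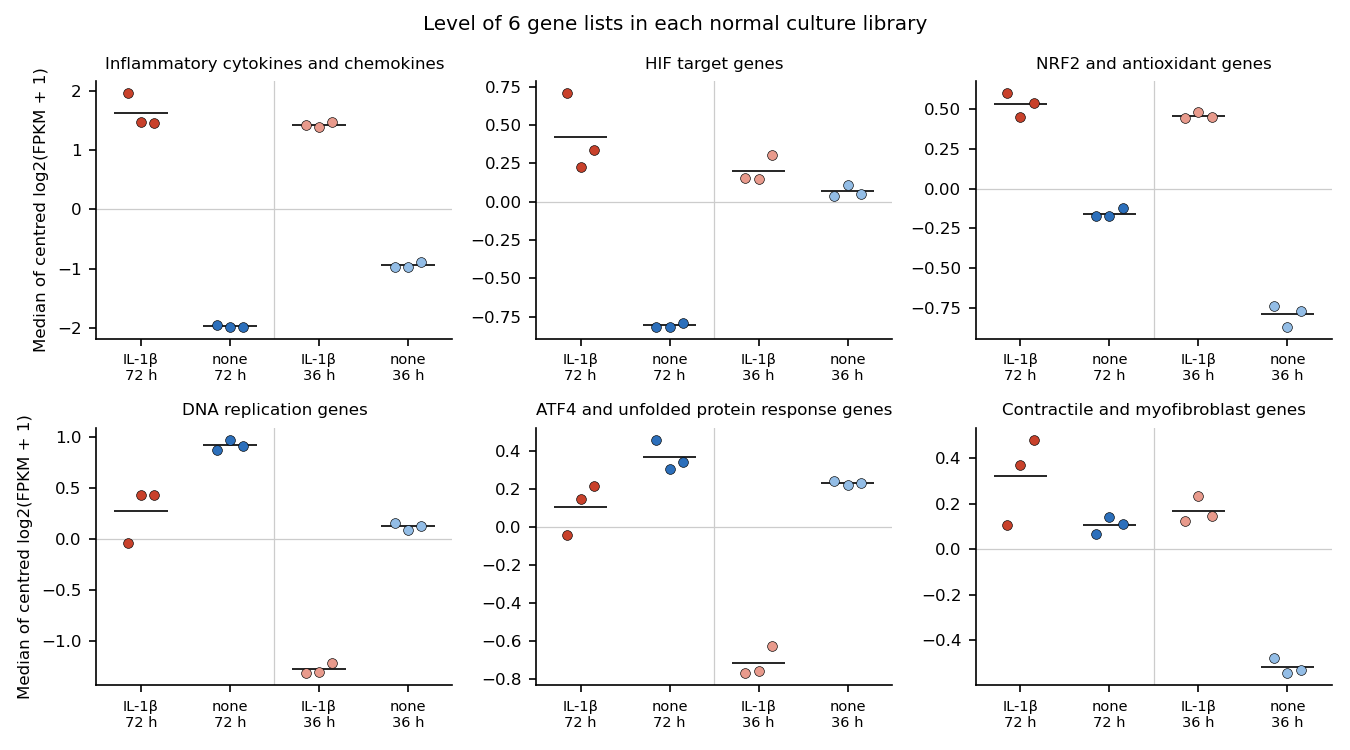
Level of 6 gene lists in each of the 12 libraries, as the median over genes of log2(FPKM + 1) after each gene was centred on its mean over the libraries, with IL-1β-treated cells left of untreated cells at 72 h and then at 36 h and a line at the mean of each group. HIF targets separate treated from untreated cells at 72 h (0.71, 0.23 and 0.33 against -0.82, -0.82 and -0.79) and lie between 0.04 and 0.31 in the 6 libraries at 36 h.

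TGF-beta and BMP pathway genes were more negative in 14 of 26 cases and more positive in 4 (median -0.44). The shares over all genes were 18.1% and 19.7%, so more positive genes were no more frequent than among all genes. Inhba, a subunit of activin, was at 155, 109 and 81.8 FPKM in IL-1β-treated and 34.7, 43.6 and 42.5 FPKM in untreated cells at 72 h, against 127, 113 and 129 FPKM in treated and 15.03, 16.7 and 16.4 FPKM in untreated cells at 36 h, with treated libraries overlapping, untreated libraries higher at 72 h and a difference of -1.41 (SE 0.23, adjusted p = 4.54e-04). Tgfb3, a ligand, and Nog, the BMP antagonist noggin, had effects of opposite signs at the times: -1.13 and -0.53 at 72 h, and 0.23 and 0.83 at 36 h. The difference of Nog was -1.36, or -2.24 with a pseudocount of 0.1. Grem1, the antagonist gremlin, did not pass at -0.44. WNT pathway genes had 5 more positive and 7 more negative of 17, against 19.7% and 18.1% of all genes, or 4 more negative without untreated 36 h replicate 2, treated 36 h replicate 1 or untreated 72 h replicate 1. Sfrp2, a secreted WNT antagonist, was at 8.55, 8.16 and 8.65 FPKM in IL-1β-treated and 48.7, 35.03 and 38.6 FPKM in untreated cells at 72 h, against 21.2, 20.7 and 18.9 FPKM in treated and 287, 271 and 269 FPKM in untreated cells at 36 h. It fell at both levels, further in untreated cells, a difference of 1.57 (SE 0.13, adjusted p = 1.59e-06). Cholesterol synthesis genes were more negative in 14 of 23 cases (median -0.36) and more positive in 0 (limma, 0 also at an unadjusted p under 0.05). IL-1β lowered 20 of them at 72 h, against 37.3% of all genes, and 7 at 36 h, a share below the 39.4% of all genes. Msmo1, a methylsterol oxidase, averaged 32.7 ± 2.69 FPKM in treated and 50.6 ± 2.27 FPKM in untreated cells at 72 h, and 50.95 ± 4.46 and 37.9 ± 1.76 FPKM at 36 h. Interferon-stimulated genes had 1 more positive and 5 more negative of 20 (8 without treated 36 h replicate 1), against 19.7% and 18.1% of all genes. A total of 19 of them fell in treated cells and 15 in untreated cells, against 30.2% and 22.9% of all genes. Irf1, an interferon response factor, did not pass at 0.04.

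The same difference was computed in the co-cultures with dermal fibroblasts, which share no library with normal culture, in a fit of all 24 libraries. This comparison was chosen after seeing the data. Of the 412 genes with a difference of at least 2-fold in normal culture, 410 had the same sign in co-culture, and 395 passed there with that sign, beside 28.9% of all genes tested that passed in co-culture (14.1% more positive, 14.8% more negative). Their median was 1.28 in normal culture and 1.01 in co-culture for the more positive genes, and -1.21 in normal culture and -0.91 in co-culture for the more negative ones. These genes had been chosen for their size in normal culture. In the same fit, 2804 of the 12057 genes tested passed in both cultures, 2799 of them with the same sign. Agreement in sign was thus not confined to the 412 genes. Sorted by the same rule in co-culture, 1 of the 187 genes with a moving untreated level fell into the treated class, 8 into the class with opposite changes and 6 into that with changes in the same direction, and the others into the untreated class again. Of the 133 genes with a moving treated level, 87 fell into that class again. How often the classes of the 2 cultures matched over all genes was not counted. The difference between the cultures passed for 84 of the 12057 genes, 0.697%, with 42 in each direction, and for 26 of the 412. By list, HIF targets had a median of 1.17 in normal culture and 1.16 in co-culture, with 19 of 23 more positive in normal culture and 21 of 23 more positive in co-culture. Mitosis genes had a median of 0.65 in normal culture and 0.26 in co-culture, with 21 of 24 past the threshold in normal culture and 5 in co-culture. The difference between cultures itself passed for 1 mitosis gene.

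Ptgs2 was the gene of the 412 that passed with opposite signs, at -1.10 in normal culture and 0.69 in co-culture, a difference of -1.79 as normal culture minus co-culture (adjusted p = 0.0121). In co-culture it averaged 439 ± 55.1 FPKM in treated and 49.99 ± 3.46 FPKM in untreated cells at 72 h, and 515 ± 19.7 and 95.7 ± 1.57 FPKM at 36 h. The untreated level of Ptgs2 was thus higher at 72 h than at 36 h in normal culture and lower in co-culture. Prg4 had a difference of -0.86 in normal culture and 0.06 in co-culture, which did not pass, and the cultures differed by -0.93. Trib3, Dkk2, Itih5, Cavin2 and Tnfrsf11b also differed between the cultures, with smaller differences of the same sign in co-culture, 1.46, -1.12, -1.09, -1.46 and -0.97. For Lcn2, Mmp3 and Il6 the values were 5.44, 4.58 and 3.77 in co-culture, and the difference between cultures did not pass for any of the 3.

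**Figure D5:**
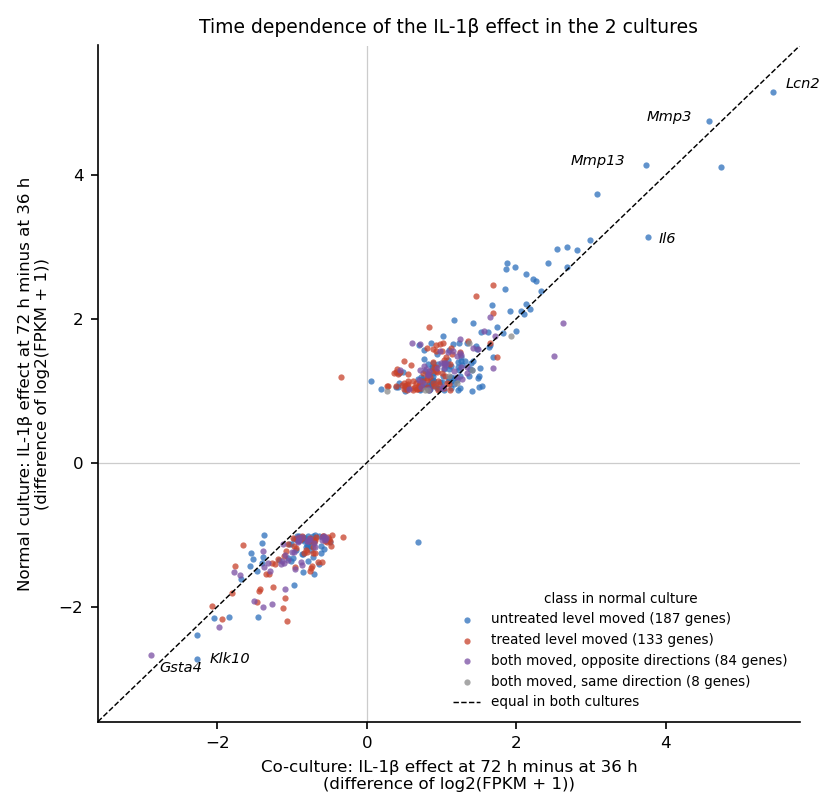
Difference of the IL-1β effect between 72 h and 36 h in normal culture (vertical axis, difference of log2(FPKM + 1)) against the same in co-culture (horizontal axis), for the 412 genes with at least a 2-fold difference in normal culture, coloured by class there. Points lie on the same side of 0 on both axes for 410 genes, and Ptgs2 (-1.10 in normal culture, 0.69 in co-culture) is the point at the lower right of the origin.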

How the data were processed

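RNA of 12 normal culture libraries was analysed, with the 12 co-culture libraries in 1 added comparison. The values are FPKM per gene as deposited by the authors. The genome was GRCm38 per the submitters' processing notes, and the aligner and counting tool are not given in the sources used here. Read depth is unknown: of 23620 low values of 1196 genes, 6.25% lay within 0.05 of whole multiples, against 10% by even spread, so reads were not recovered and a count test was not run. Per the labels all 24 columns belong to named samples, and 0 columns were left unused.

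From the deposited FPKM, log2(FPKM + 1) was computed for the 12057 of 17094 genes with at least 1 FPKM in at least 3 of the 12 libraries. A linear model with 1 mean per group and a spread that follows the level (limma 3.58.1 in R 4.3.3, 8 residual degrees of freedom, 16 with 24 libraries) gave the IL-1β effect at 72 h minus that at 36 h, the change in each condition and the effect at each time, with Benjamini-Hochberg adjustment over all genes tested and a threshold of 0.05. The procedure was tested on simulated data, in which a gene had the same mean and spread in all groups apart from added changes. The larger spread of treated cells at 72 h was therefore not part of that test. Genes were sorted by which level moved, with a ratio of 2.

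The members and the 25 gene lists were chosen with earlier results of these data known, so a list's count is no independent evidence of its direction. Of 507 list entries 6, and of 87 entries of 10 marker lists 4, have no values here. Further entries have values but did not meet the filter and were not tested. Genes were named by rule: 16 core genes, the largest differences in each class and direction among genes reaching a mean of 5 FPKM, up to 4 genes past the threshold and 2 that did not pass in each list, and up to 3 markers of each cell type. Alternatives were another pseudocount (0.1), other filters, TPM and median-of-ratios scaling, all 24 libraries, group weights, the replicate number as a block, leaving out each library, and other sorting rules. The co-culture comparison and the counts of genes past 2-fold without each treated 72 h library were chosen after seeing the data.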

Additional observations from a re-analysis of the deposited data

Results flagged for a closer look

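The effect of IL-1β differed between the times in a test of the difference itself (limma, adjusted p under 0.05), and the results concerned are given here as values. It was more positive at 72 h for 2376 genes and more negative for 2187. Among the genes described whatever their result, the effect at 72 h minus that at 36 h was -0.56 for Col2a1, -0.69 for Acan, 0.46 for Sox9, -1.33 for Col10a1 and -0.86 for Prg4. For the matrix proteases it was 4.75 for Mmp3, 4.14 for Mmp13, 0.21 for Adamts4 and -0.56 for Adamts5. For the inflammatory genes it was 3.14 for Il6, 1.95 for Nos2, -1.10 for Ptgs2, 4.11 for Saa3 and 5.15 for Lcn2. The stress genes Nqo1 and Egln3 had -2.16 and 2.38.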

How the results depend on the processing

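Over the 12 fits that each left out 1 library, the genes with a more positive effect at 72 h numbered 1936 to 3068 and those with a more negative one 1822 to 2719, the highest of both without treated 72 h replicate 1. The untreated class held 969 to 1280 genes, the treated class 1803 to 2961, opposite changes 617 to 815 and changes in the same direction 355 to 731. By pattern the ranges were 393 to 661 larger, 870 to 1373 smaller, 389 to 704 of opposite signs, 821 to 1161 at 72 h alone, 1118 to 1814 at 36 h alone and 51 to 76 at neither. Over the other alternatives the more positive genes numbered 1964 to 2874 and the more negative ones 1646 to 2618. Across them the untreated class held 823 to 1385 genes and the treated class 1540 to 2674. Opposite changes numbered 412 to 1029 and changes in the same direction 92 to 1422. Of the scalings, TPM gave 1964 more positive and 2441 more negative genes, so that the more common direction was reversed, and median-of-ratios scaling gave 2503 and 2128. Without a filter 86 genes passed at neither time. A sorting ratio of 1.5 left 412 genes with opposite changes and 92 with changes in the same direction, a ratio of 3 put 1171 in the same-direction class, and sorting by each change's own test put 1422 there, since these rules move the borders between the classes. With the replicate number as a block, 2244 genes were more positive and 2068 more negative, and 2355 and 2120 with a block within time. Same-numbered libraries correlated at 0.127, 0.184 and 0.038 between treated and untreated cells at 72 h, and at -0.0997, 0.015 and 0.133 at 36 h, so the numbers were not taken as pairs, although at 72 h each library correlated best with its own number. Scaling to TPM moved the median IL-1β effect over all genes at 72 h to -0.20, against -0.08 as deposited, and the median difference to -0.04, against 0.01. Of the 143 named genes that passed, 5 lost the call under some alternative: Acan, Mmp9 and Otor with a pseudocount of 0.1 (for Otor the sign changed, to 0.11), Sox9 and Adamts4 under several, and the cause was not tested. Depth is unknown, so no counting error could be given.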

Other observations

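Summed levels of the remaining marker lists are given as values, and no test was run on them. The osteoblast markers summed to 36.4 to 39.3 FPKM in treated and 30.7 to 39.7 FPKM in untreated cells at 72 h, and to 30.3 to 33.03 and 19.2 to 21.1 FPKM in treated and untreated cells at 36 h. The adipocyte markers summed to 27.6 to 31.2 FPKM in treated and 20.1 to 24.2 FPKM in untreated cells at 72 h, and to 71.2 to 73.6 and 78.6 to 89.4 FPKM in treated and untreated cells at 36 h, so both conditions were lower at the later time. Schwann and glial markers summed to 37.2 to 45.95 FPKM in treated and 25.01 to 28.01 FPKM in untreated cells at 72 h, and to 37.2 to 40.2 and 30.99 to 31.9 FPKM in treated and untreated cells at 36 h.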
